A study of Mus musculus with 4 samples.

Results

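The genes described here encode the Dickkopf proteins Dkk1, Dkk2 and Dkk3, the Wnt inhibitor Wif1, the Dickkopf receptors Kremen1 and Kremen2, and the low-density lipoprotein receptor-related proteins Lrp4, Lrp5 and Lrp6. They were chosen by symbol, not by their values, and are 9 of 33126 gene units in the tables. Messenger RNA was measured in mouse dermal cells sorted for LacZ driven from Axin2, a gene that Wnt/beta-catenin signalling switches on. The groups were ventral skin of the foot (embryonic stage E17.5) and dorsal skin of the back (stage E14.5), each as a fraction labelled Axin2-LacZ positive and one labelled negative. Each group holds 1 library, so no difference has a replicate check and no p-value is given. All 4 groups, the negative ones included, carry the Axin2-LacZ reporter. The sources used here do not state strain, sex, litter, pooling of embryos or how LacZ was detected for sorting, nor whether the reporter allele leaves Axin2 itself intact. Site and stage change together between foot and back and cannot be told apart.

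Wnt proteins bind a Frizzled receptor together with the co-receptor Lrp5 or Lrp6, and this complex stabilises beta-catenin. Dkk1 and Dkk2 bind Lrp5 and Lrp6, and Kremen1 and Kremen2 can form a complex with Dickkopf and the co-receptor that removes the co-receptor from the cell surface. Wif1 instead binds the Wnt protein itself, Dkk3 is a divergent relative without the established Lrp5 and Lrp6 antagonism of Dkk1, and Lrp4 is a related receptor that binds agrin, sclerostin and Sostdc1. In skin, DKK1 is known from the fibroblasts of human palms and soles, and mice that lack Dkk2 grow hair in skin of the ventral wrist that is otherwise hairless.

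The unit is FPKM, the number of fragments scaled by transcript length and by the library's mapped fragments, which allows levels of different genes to be set side by side. Each value carries a lower and an upper bound from the authors, given below in parentheses, which cover counting and read assignment within a library only. Among coding genes of at least 5 FPKM the bounds reached a median of 23.0% of the value to either side in the foot library labelled positive and 8.89% in the back library labelled positive, the widest and the narrowest of the 4. The foot values are the less precise ones. Each of the 9 genes had 1 entry with status OK in every library, and each value lay inside its own bounds. Axin2, which checks the labels, was 9.65 FPKM (7.10 to 12.5) in the positive-labelled foot library and 12.9 FPKM (10.2 to 15.3) in its negative partner, against the label and with overlapping bounds. The back values, 4.49 FPKM (3.89 to 5.09) and 3.13 FPKM (2.63 to 3.64), followed the label as deposited. After the rescaling described below, the log2 ratio of Axin2 between fractions was -0.15 ± 0.45 in the foot and 0.25 ± 0.25 in the back, and the rescaled bounds overlapped in both skins. Directions between sorted fractions below therefore follow the labels, which Axin2 transcript did not bear out in the foot.

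Markers of dermal fibroblasts were present in every library, with all 8 above 0 and summed levels of 7141 and 6714 FPKM in the foot (positive label first) and 4355 and 3070 FPKM in the back. Other cell types left smaller traces that moved with the labels. The 7 mast cell markers summed to 2.17 and 267.5 FPKM in the foot and 24.7 and 84.6 FPKM in the back, in the order labelled positive, then negative. Of them Fcer1a and Mcpt4 were listed at 0 in every library, and Cpa3 and Tpsab1 also in the foot library labelled positive. The 5 keratinocyte markers with entries of their own went the other way, at 7.56 and 0 FPKM in the foot and 29.7 and 10.7 FPKM in the back. All 5 of them were listed at 0 in the foot library labelled negative, and Trp63, Cdh1 and Epcam were also at 0 in the other foot library. The 7 pericyte and smooth muscle markers stood at 31.9 and 23.0 FPKM in the foot and 41.8 and 16.8 FPKM in the back, where Tagln was at 0 under the negative label. Other markers moved between foot and back: the 7 endothelial markers summed to 0.979 and 0.461 FPKM in the foot, with 5 of 7 at 0 in each library, and to 6.58 and 4.64 FPKM in the back, with none at 0. The 8 leukocyte markers summed to 0.788 and 4.49 FPKM in the foot and 4.50 and 16.5 FPKM in the back. They were lower with the positive label in each skin and lower in the foot under each label. The part of these cells in the results below was not tested. In sorted bulk samples, fewer cells of a type and less RNA per cell cannot be told apart.

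**Figure D1:**
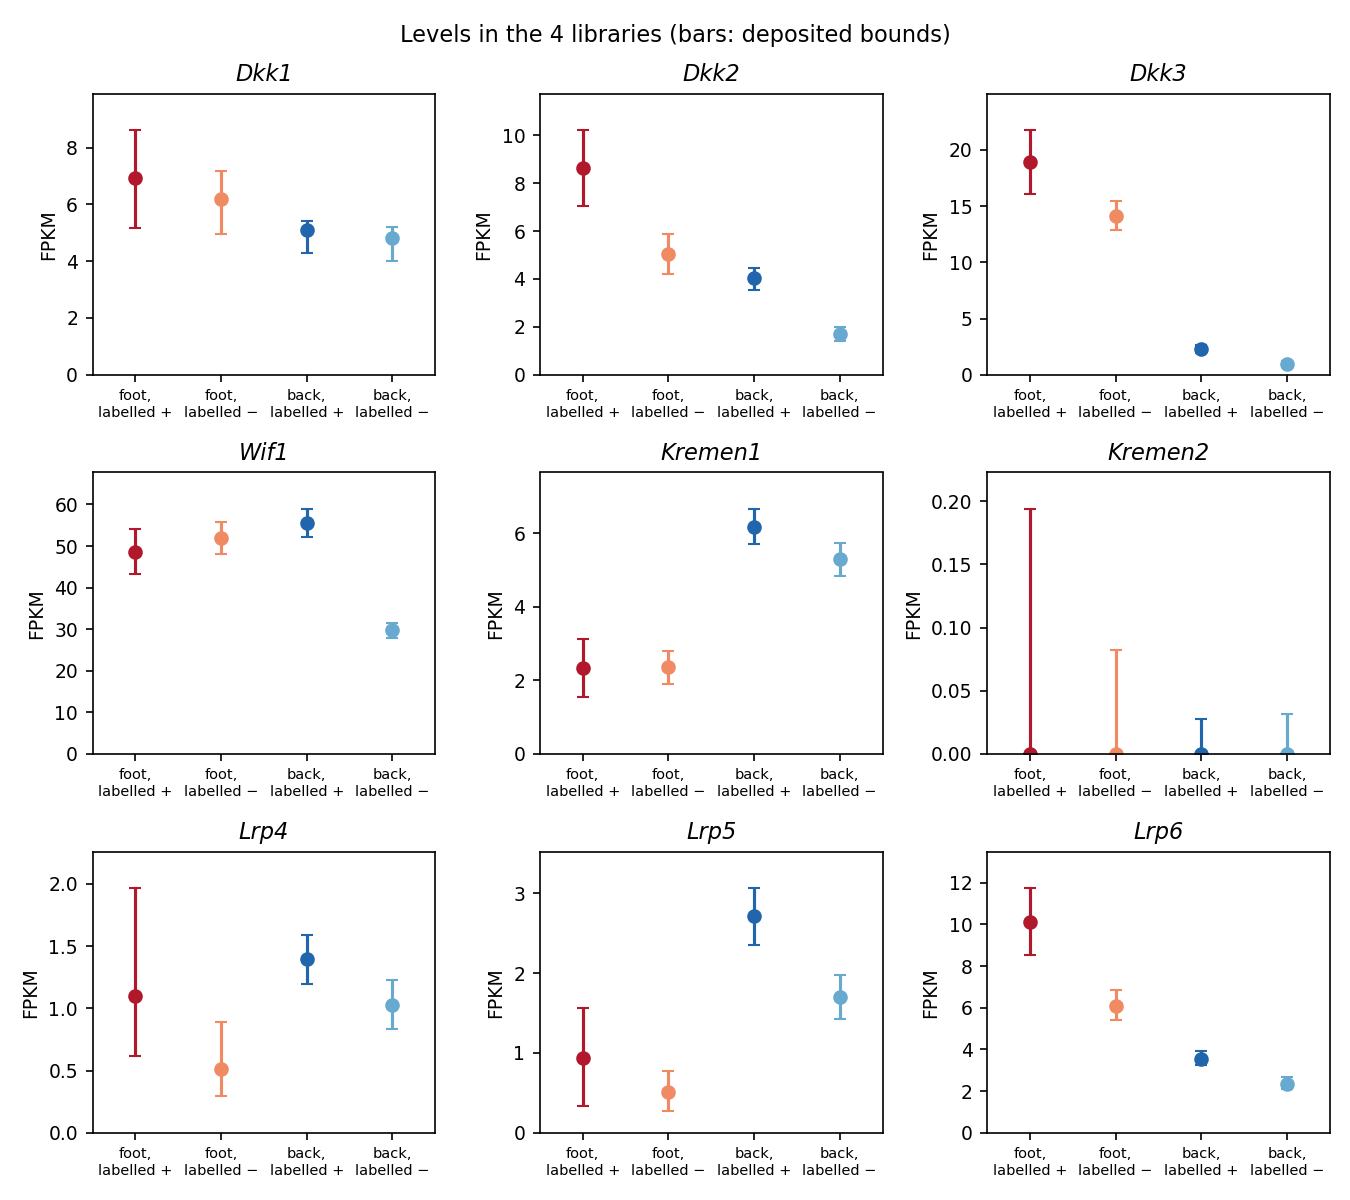
Level of each gene (FPKM, linear axis from 0) in the 4 libraries, foot in red and back in blue; points are deposited values and bars the authors' bounds. Dkk3 and Lrp6 sit higher in both foot libraries, and Kremen1 and Lrp5 higher in both back libraries. Dkk2 is higher in the foot within each label, Dkk1 is nearly level, and Kremen2 is listed at 0 throughout.

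To compare libraries, FPKM was divided by a scaling factor per library (1.08 and 1.28 in the foot, 0.920 and 0.791 in the back, labelled positive first), and the value compared was log2 of the rescaled FPKM plus 1. The half-width after the sign ± combines the bounds of both values on that scale. A gene was counted as called when it was at least 2-fold apart and its larger FPKM was at least 5. As deposited, the median of 3423 well-expressed coding genes was shifted by -0.25 (foot, labelled positive over negative), 0.21 (back), 0.23 (foot over back, labelled positive) and 0.69 (foot over back, labelled negative) on the log2 scale, and the ratios below are relative to these shifts.

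The Dickkopf genes differed from one another in how they varied. Dkk1 was nearly level over the 4 libraries, and Dkk3 was high in the foot and low in the back. Dkk2 was higher with the positive label within each skin and higher in the foot within each label. Dkk1 (chromosome 19, 30620353 to 30624155, mm9) had 6.92 FPKM (5.15 to 8.62) in the foot under the positive label and 6.19 FPKM (4.96 to 7.17) under the negative label. The back libraries held 5.09 FPKM (4.28 to 5.43) and 4.82 FPKM (4.01 to 5.19). The bounds overlapped in each of the 4 pairs compared. The log2 ratio between the fractions was 0.35 ± 0.38 in the foot and -0.12 ± 0.20 in the back, and between foot and back it was 0.18 ± 0.34 for the positive label and -0.28 ± 0.26 for the negative label. Of these 4 only the ratio of -0.28 passed its half-width. The difference between the label ratios of foot and back was 0.46 ± 0.43, and 0.07 as deposited. The negative ratios of -0.12 and -0.28 became 0.07 and 0.31 with FPKM as deposited, so the direction of Dkk1 in the back fractions and between foot and back under the negative label depends on the scaling.

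Dkk2 (chromosome 3, 131748256 to 131843257) was highest in the positive-labelled foot library, with 8.63 FPKM (7.05 to 10.2), followed by the foot library labelled negative at 5.05 FPKM (4.22 to 5.86). The back libraries held 4.04 FPKM (3.53 to 4.48) and 1.69 FPKM (1.40 to 1.98). The bounds of the foot library labelled negative and the back library labelled positive overlapped. After rescaling their order reversed, at 3.95 and 4.39. In each skin the labelled positive library was the higher, and in each label the foot was the higher. The log2 ratios were 0.87 ± 0.30 in the foot and 0.78 ± 0.22 in the back between fractions, and 0.74 ± 0.27 and 0.66 ± 0.25 between foot and back. The rescaled bounds were apart in all 4 pairs, and no ratio reached 2-fold. The added 1 shrinks ratios at these levels: without it the rescaled FPKM was 2.03 times as high under the positive label as under the negative label in the foot, and 2.05 times in the back. The foot ratio exceeded the back ratio by 0.09 ± 0.37, a difference within its half-width whose sign reversed as deposited (-0.23). Inside the Dkk2 locus, 4 and 7 unnamed assembled fragments were listed in the foot libraries and none in the back libraries, and whether they carry reads of Dkk2 was not tested.

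Dkk3 (chromosome 7, 119259533 to 119302571) was the gene with the widest span of the family. It stood at 18.9 FPKM (16.1 to 21.7) and 14.1 FPKM (12.8 to 15.5) in the foot, and at 2.30 FPKM (1.94 to 2.66) and 0.968 FPKM (0.751 to 1.18) in the back. Foot and back do not overlap under either label, and within each skin the library labelled positive was the higher beyond the bounds. Without the added 1, the rescaled FPKM was 7.03 times as high in the foot for the positive label and 9.03 times for the negative label. The log2 ratios between fractions were 0.62 ± 0.24 in the foot and 0.65 ± 0.24 in the back, a difference between the skins of -0.03 ± 0.34. Within the library, Dkk3 made up 54.9% and 55.7% of the summed FPKM of Dkk1, Dkk2 and Dkk3 in the foot, and 20.1% and 12.9% in the back. Dkk1 took 44.5% and 64.5% in the back and 20.1% and 24.4% in the foot, so the leading Dickkopf transcript was Dkk3 in the foot and Dkk1 in the back.

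The proximal promoters of Dkk1, Dkk2 and Wif1 are shown because Dkk2 and Wif1 were both higher in the back library labelled positive while Dkk1 was not. RefSeq promoter entries (GRCm38.p6, a later build than the mm9 of the tables) matched 4 of the 9 genes: these 3 and Kremen2. Each line gives the 250 bases before the start site, 5′ to 3′ on the gene's strand, with matches to the TCF/LEF letters CTTTGA or CTTTGT on either strand in capitals. Dkk1 lies on the minus strand at chr19:30549497-30549746, Dkk2 on the plus strand at chr3:132085042-132085291, and Wif1 on the plus strand at chr10:121033754-121034003.
Dkk1: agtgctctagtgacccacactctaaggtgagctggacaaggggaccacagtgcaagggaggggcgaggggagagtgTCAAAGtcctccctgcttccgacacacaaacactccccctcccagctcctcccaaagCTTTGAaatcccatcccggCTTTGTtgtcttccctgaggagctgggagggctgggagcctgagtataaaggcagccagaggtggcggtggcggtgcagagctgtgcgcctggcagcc
Dkk2: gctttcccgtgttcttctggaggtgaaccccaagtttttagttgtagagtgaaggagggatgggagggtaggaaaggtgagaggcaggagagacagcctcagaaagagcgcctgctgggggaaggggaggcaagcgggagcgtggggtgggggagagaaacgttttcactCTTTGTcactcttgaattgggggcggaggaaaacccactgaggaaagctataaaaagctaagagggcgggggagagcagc
Wif1: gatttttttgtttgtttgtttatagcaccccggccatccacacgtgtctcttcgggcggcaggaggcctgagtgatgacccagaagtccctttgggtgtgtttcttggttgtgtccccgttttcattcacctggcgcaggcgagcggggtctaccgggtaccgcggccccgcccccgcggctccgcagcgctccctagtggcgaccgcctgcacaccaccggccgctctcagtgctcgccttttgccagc
Dkk1 holds 3 matches, beginning 174, 117 and 98 bases before the start site, the first of them on the opposite strand. Dkk2 holds 1 match, beginning 80 bases before the start, and Wif1 holds none in this window. Of 32851 promoter windows of this length, 27.6% hold at least 1 such match, 13.8% CTTTGA and 16.5% CTTTGT. A match is a run of letters and not a measured binding site. Dkk1 and Dkk2 also carry the letters TATAAA on their own strand, 54 and 32 bases before the start, and Wif1 carries them on the opposite strand, 232 bases before the start. These letters were found on either strand in 12.4% of windows.

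Wif1 (chromosome 10, 120471016 to 120537706), whose product binds Wnt proteins directly, was the most abundant of the 9 transcripts in every library. The foot libraries held 48.7 FPKM (43.3 to 54.1) and 52.0 FPKM (48.2 to 55.8), positive label first, and the back libraries 55.5 FPKM (52.2 to 58.9) and 29.7 FPKM (27.8 to 31.6). These levels exceeded those of 94.0% to 96.2% of coding genes. As deposited the back library labelled negative was the low one of the 4. After rescaling the values were 45.2 and 40.6 in the foot and 60.3 and 37.5 in the back, and the back library labelled positive was the high one. The log2 ratio between fractions was 0.67 ± 0.12 in the back, with bounds apart, and 0.15 ± 0.19 in the foot, with overlapping bounds and a sign that reversed as deposited (-0.09). The difference between the skins was -0.52 ± 0.22, past its half-width and short of 2-fold, and -0.97 as deposited. Between foot and back the ratio was -0.41 ± 0.18 for the positive label, with bounds apart after rescaling only. For the negative label it was 0.11 ± 0.14, with overlapping bounds, but 0.79 with bounds apart as deposited. The foot and back comparison of Wif1 under the negative label therefore depends on the scaling. Relative to Dkk1 plus Dkk2 in the same library, Wif1 was 3.13 times (2.60 to 3.77) and 4.62 times (4.01 to 5.33) as high in the foot, and 6.08 times (5.49 to 6.72) and 4.56 times (4.05 to 5.14) as high in the back. The lowest of these ratios was in the foot library labelled positive and the highest in the back library labelled positive.

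Of the Kremen receptors, Kremen1 (chromosome 11, 5091555 to 5161561 in the foot tables) was measured and was higher in the back. Its levels were 2.34 FPKM (1.55 to 3.13) and 2.35 FPKM (1.89 to 2.81) in the foot and 6.19 FPKM (5.72 to 6.66) and 5.29 FPKM (4.85 to 5.75) in the back. Foot and back did not overlap under either label, with log2 ratios of -1.29 ± 0.35 for the positive label and -1.44 ± 0.21 for the negative label. As deposited the second was -0.91, short of 2-fold. Between the sorted fractions Kremen1 differed by 0.16 ± 0.38 in the foot and 0.01 ± 0.14 in the back, within the half-width in each skin. Kremen2 (chromosome 17, 23878167 to 23882796) was listed at 0 in all 4 libraries, with upper bounds of 0.194, 0.0818, 0.0274 and 0.0318 FPKM for the foot (positive label first) and then the back. GENCODE vM21 places the antisense gene 9530082P21Rik over Kremen2 and the small nuclear RNA gene Gm25142 within Kremen1, and the sources used here do not state whether counting used strand.

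The co-receptor genes Lrp5 and Lrp6 went in opposite directions between the skins. Lrp6 (chromosome 6, 134396492 to 134516983 in the foot library labelled positive) stood at 10.1 FPKM (8.54 to 11.7) and 6.08 FPKM (5.42 to 6.87) in the foot and 3.56 FPKM (3.25 to 3.91) and 2.36 FPKM (2.12 to 2.70) in the back. Every foot value lay above every back value, and in each skin the library labelled positive was the higher with bounds apart. The log2 ratio between foot and back was 1.10 ± 0.23 for the positive label and 0.53 ± 0.19 for the negative label, the latter rising past 2-fold (1.07) as deposited. Between fractions it was 0.86 ± 0.25 in the foot and 0.29 ± 0.17 in the back, a difference of 0.57 ± 0.30 that fell to 0.22 as deposited.

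Lrp5 (chromosome 19, 3584828 to 3686564) stood at 0.942 FPKM (0.331 to 1.56) and 0.515 FPKM (0.269 to 0.773) in the foot and at 2.71 FPKM (2.36 to 3.06) and 1.70 FPKM (1.43 to 1.97) in the back. Here every back value lay above every foot value, with bounds apart after rescaling. The log2 ratios between foot and back were -1.07 ± 0.46 under the positive label and -1.17 ± 0.26 under the negative one. Lrp5 did not reach 5 FPKM in any library and so was not eligible for a call. Its label ratio was 0.33 ± 0.21 in the back and 0.42 ± 0.48 in the foot.

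The balance of the co-receptors within a library needs no scaling between libraries. Lrp6 was 10.8 times (5.51 to 21.0) and 11.8 times (7.13 to 19.5) as high as Lrp5 in the foot, positive label first, and 1.31 times (1.12 to 1.54) and 1.39 times (1.13 to 1.70) as high in the back libraries. The foot ratio was 8.21 times (4.12 to 16.3) the back ratio for the positive label and 8.50 times (4.94 to 14.6) for the negative label. Between the sorted fractions the balance differed by a factor of 0.912 (0.394 to 2.11) in the foot and 0.944 (0.730 to 1.22) in the back, intervals that include 1. Lrp6 against Kremen1 showed the same order, at 4.34 (2.99 to 6.31) and 2.58 (2.06 to 3.25) in the foot and 0.574 (0.510 to 0.648) and 0.446 (0.384 to 0.518) in the back. So Lrp6 transcript exceeded Kremen1 transcript in the foot and was below it in the back. In contrast, Dkk1 plus Dkk2 relative to Lrp5 plus Lrp6 differed less between libraries, at 1.40 (1.13 to 1.74) and 1.71 (1.44 to 2.02) in the foot and 1.46 (1.30 to 1.63) and 1.60 (1.39 to 1.85) in the back. These intervals overlap in every pair compared, and the 4 ratios between them have intervals that include 1. The ratios within libraries were chosen after the values were seen.

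**Figure D2:**
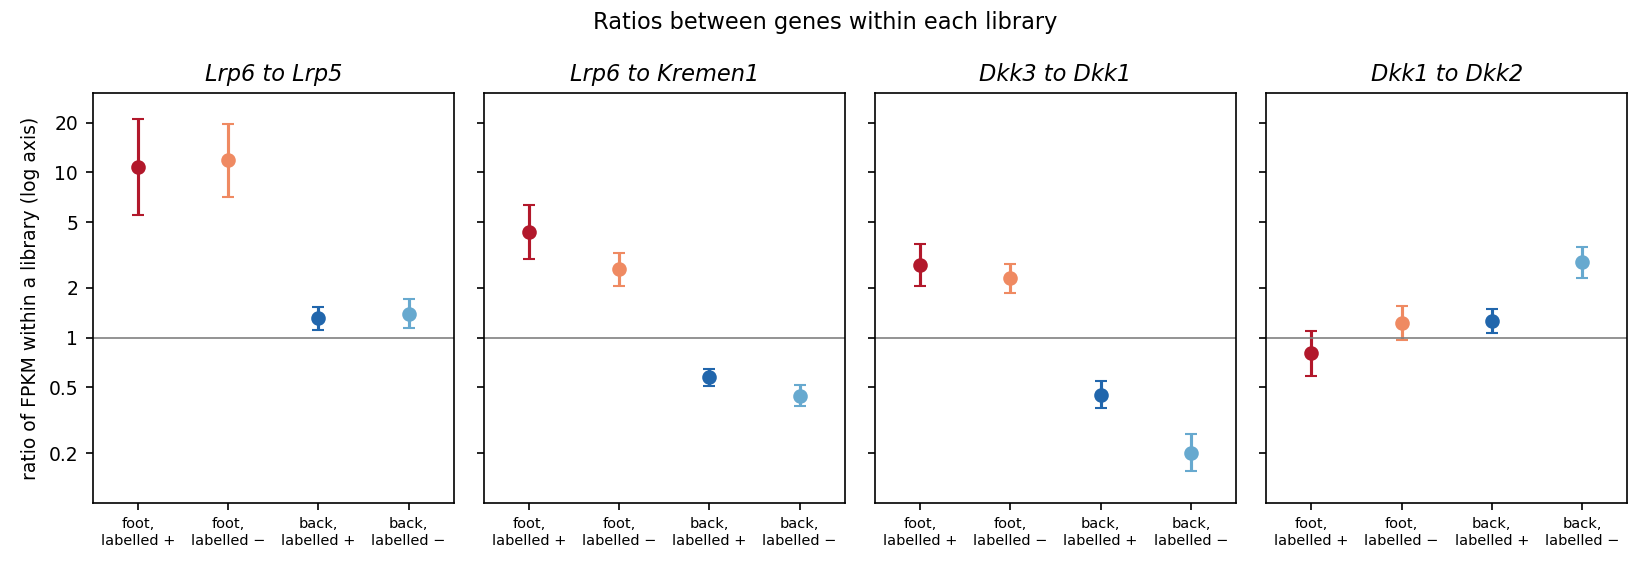
Ratio of FPKM between the named genes within each library (log axis), foot in red and back in blue, with intervals from the authors' bounds. Lrp6 to Lrp5 sits at 10.8 and 11.8 in the foot and at 1.31 and 1.39 in the back, and Dkk3 to Dkk1 lies above 1 in the foot and below 1 in the back.

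Lrp4 (chromosome 2, 91297668 to 91354058) was among the lowest of the measured genes. It stood at 1.10 FPKM (0.616 to 1.97) and 0.509 FPKM (0.294 to 0.890) in the foot and at 1.39 FPKM (1.19 to 1.59) and 1.03 FPKM (0.837 to 1.22) in the back. The bounds overlapped for every pair except foot against back under the negative label (log2 ratio -0.72 ± 0.29), and as deposited they overlapped there too. Lrp4 made up 9.01% and 7.17% of the summed FPKM of Lrp4, Lrp5 and Lrp6 in the foot and 18.2% and 20.2% in the back. Agrn and Sostdc1, of the 4 ligand and partner genes listed for Lrp4, were more abundant than the receptor in every library. Agrn, which encodes agrin, was called higher with the positive label in both skins, at 10.5 FPKM (8.19 to 12.7) against 3.93 FPKM (3.21 to 4.67) in the foot and 14.6 FPKM (13.8 to 15.3) against 5.54 FPKM (5.08 to 6.02) in the back. Sostdc1, which encodes a secreted ligand of Lrp4, Lrp5 and Lrp6, was called higher in the foot under both labels, at 44.0 FPKM (35.4 to 45.9) and 39.1 FPKM (32.4 to 39.9) against 12.1 FPKM (9.98 to 12.2) and 6.27 FPKM (5.02 to 6.75). In each pair this was 1 of 2 eligible genes of the list. Of all coding genes 21.8% (foot) and 7.73% (back) were called between fractions. Between foot and back 31.2% (positive label) and 28.2% (negative label) were.

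The order of the 9 genes by level differed between the skins. In the foot library labelled positive it ran Wif1, Dkk3, Lrp6, Dkk2, Dkk1, Kremen1, Lrp4 and Lrp5, and neighbours from Lrp6 to Dkk1 and from Kremen1 to Lrp5 had overlapping bounds. In its negative partner Dkk1, Lrp6 and Dkk2 overlapped in turn below Wif1 and Dkk3, as did Lrp5 and Lrp4 at the low end below Kremen1. The back libraries began with Wif1 and Kremen1 and had Dkk1 in the third place. Among the others in the back library labelled positive, Dkk1, Dkk2 and Lrp6 overlapped in turn, as did Lrp5 and Dkk3, and Lrp4 was lowest. In the back library labelled negative the order was Wif1, Kremen1, Dkk1, Lrp6, Lrp5, Dkk2, Lrp4 and Dkk3, where Kremen1 and Dkk1, Lrp5 and Dkk2, and Lrp4 and Dkk3 overlapped.

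The counts of the family were set beside those of all coding genes. In the foot, 0 of 5 eligible genes were called between the fractions, where 21.8% of 5960 coding genes were (11.2% higher, 10.7% lower). In the back it was 0 of 3, where 7.73% of 4879 were (4.28% higher, 3.44% lower). Between foot and back, 3 of 6 were called for the positive label (Dkk3 and Lrp6 higher, Kremen1 lower), where 31.2% of all were (16.7% higher, 14.4% lower). For the negative label 2 of 6 were called (Dkk3 higher, Kremen1 lower), where 28.2% of all were (16.1% higher, 12.1% lower). For the difference between the label ratios 0 of 6 were called, where 27.2% of all were. Rescaled bounds were apart for 3 of 7 genes of at least 1 FPKM in the foot, all higher with the positive label, where this held for 36.7% of all such genes (18.8% higher, 17.9% lower). In the back it was 5 of 8, again all higher, where it held for 37.5% (20.2% higher, 17.3% lower). Between foot and back it was 6 of 8 under each label, 3 in each direction, where it held for 51.0% under the positive label (25.4% higher, 25.6% lower) and 58.0% under the negative label (28.9% higher, 29.1% lower).

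By label, most ratios of the family genes were above 0, several of them within their half-width. In the foot all 8 measured genes had a ratio above 0, with a median of 0.48. The ratios of Dkk1, Wif1, Kremen1 and Lrp5 lay within their half-widths there. The side of 0 on which coding genes fell was counted only for those with a larger FPKM of at least 5, given below. The median of the 14029 coding genes above 0 FPKM in any library (the condition for a measured gene) was 0. That set holds many low genes, whose ratios the added 1 keeps near 0. Of 18513 coding units, 8043 and 7258 were listed at 0 in the foot libraries, positive label first. Over coding genes with a larger FPKM of at least 5, the median was -0.003 in the foot and 0.01 in the back. Of these, 50.2% had a ratio below 0 in the foot and 48.2% in the back. Only 5 family genes in the foot and 3 in the back belong to that set. As deposited, Wif1 (-0.09) and Kremen1 (-0.01) were below 0. In the back 7 of 8 family genes were above 0, all but Dkk1, with a median of 0.31 where that of the same 14029 coding genes was 0. The ratios of Dkk1, Kremen1 and Lrp4 lay within their half-widths in that skin. The fibroblast, keratinocyte, pericyte and endothelial marker sums given above were also higher with the positive label in both skins. Those of mast cells and leukocytes were lower in both. Of the sums not given above, Schwann cell and melanocyte markers were higher in both skins. Hair dermal condensate markers and cartilage and bone markers were lower in both. Between foot and back 4 genes were above and 4 below 0 under each label, with medians of -0.07 and -0.08 where those of the same coding genes were -0.03 and -0.03.

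**Figure D3:**
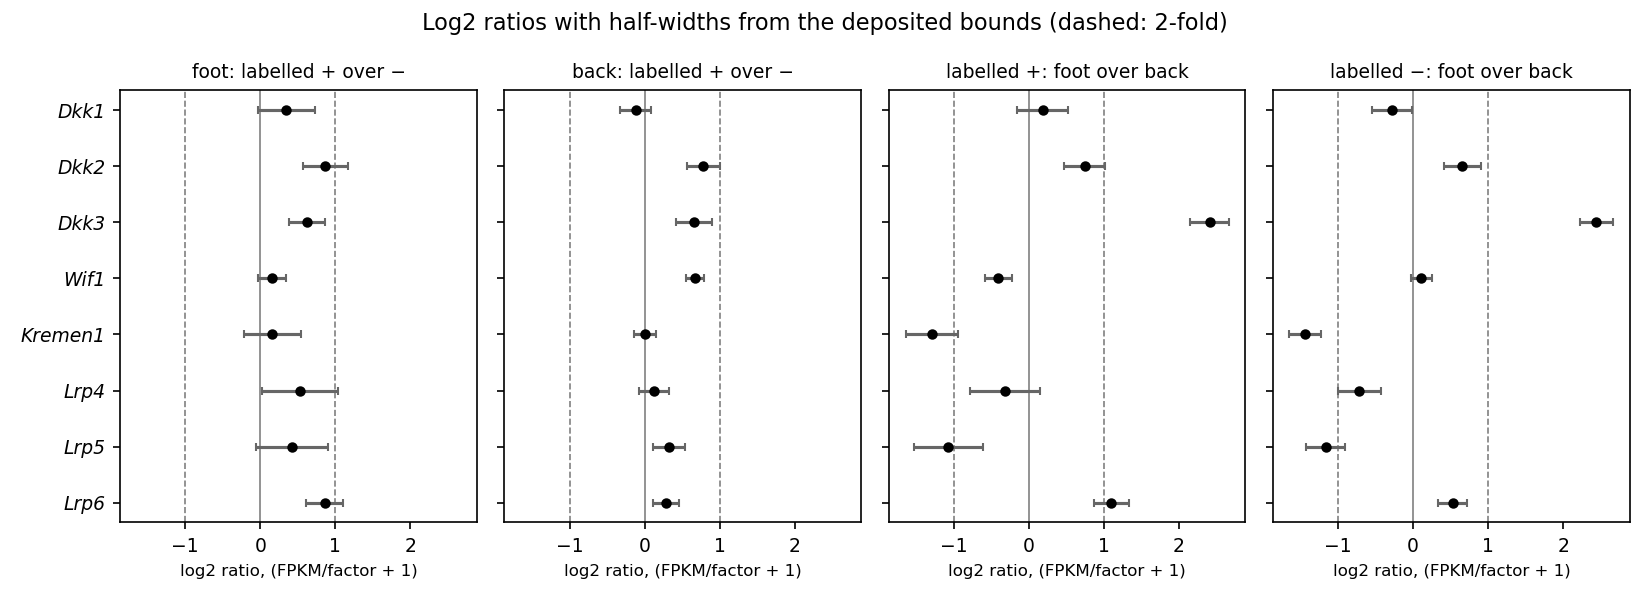
Log2 ratio of each measured gene for the 4 pairs, with half-widths from the authors' bounds; dashed lines mark 2-fold and the solid line no difference. Between fractions the points lie between -0.12 and 0.87, while between foot and back Dkk3 lies at 2.41 and 2.44 and Kremen1 at -1.29 and -1.44.

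**Figure D4:**
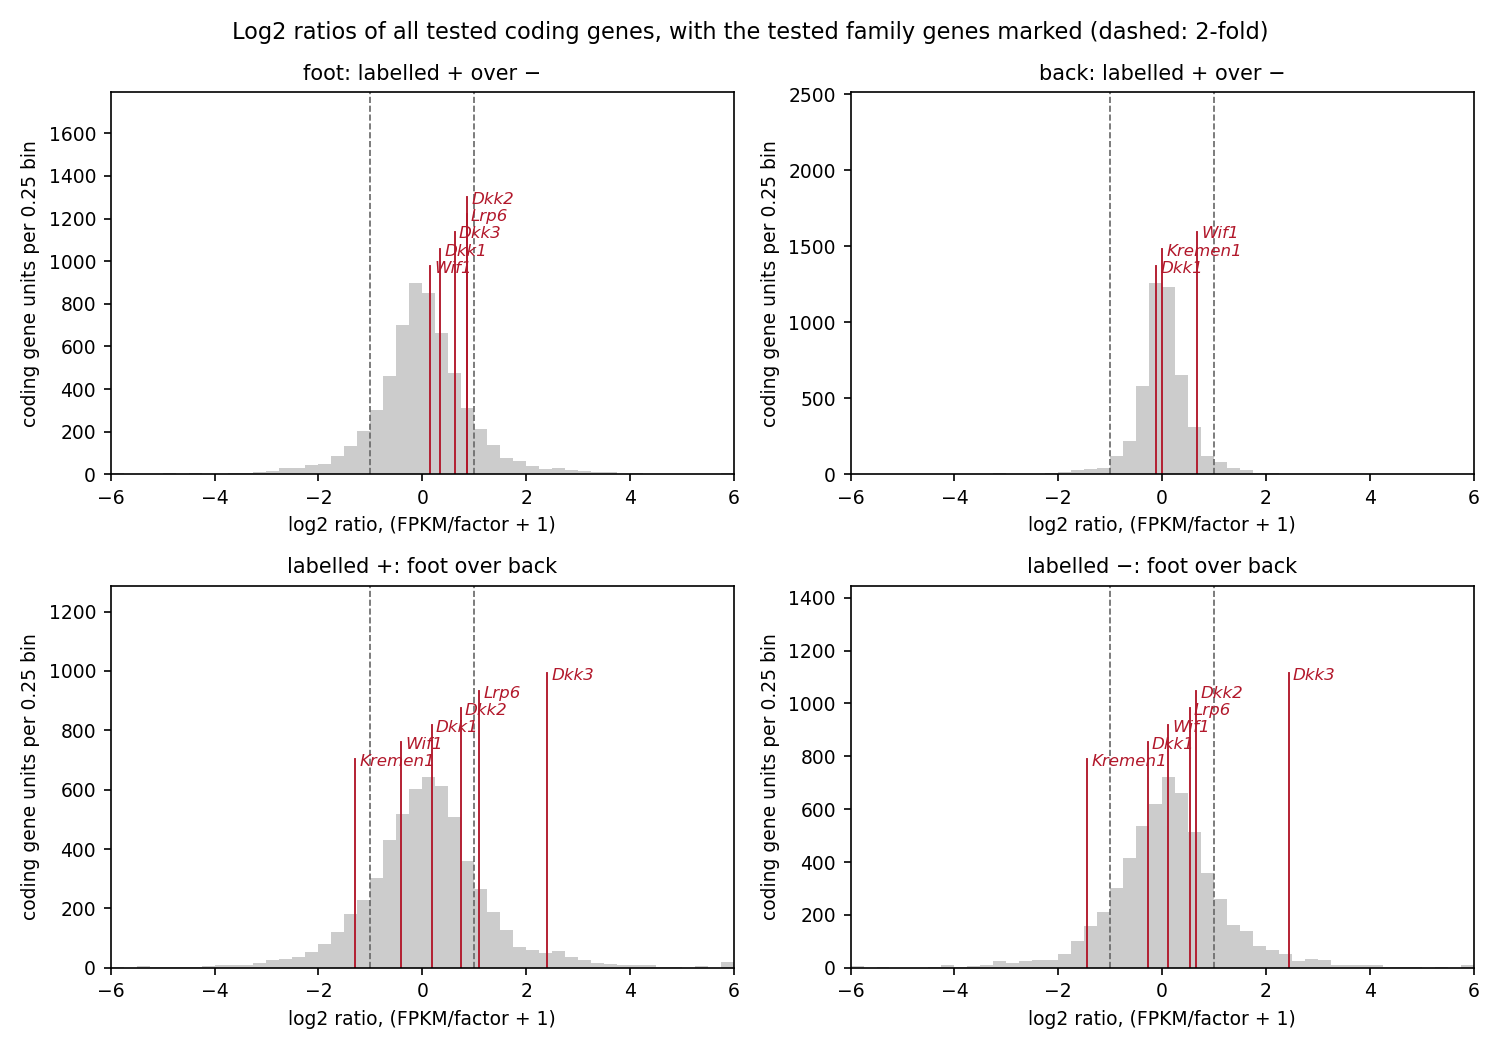
Histograms of the log2 ratio over all coding genes with a larger FPKM of at least 5 for the 4 pairs (bins of 0.25, the end bins also holding values beyond the axis), with the eligible family genes marked in red. Between the fractions all marked genes lie inside the dashed 2-fold lines, and between foot and back Dkk3 lies far to the right.

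Other parts of the receptor machinery were counted from lists. Among 3 eligible receptors related to the Lrp genes, Vldlr was called higher and Lrp1 lower with the positive label in the back. There 7.73% of all coding genes were called. Between the foot fractions 0 of 3 were called, where 21.8% of all were. Vldlr went the other way there, at 4.63 FPKM (3.53 to 7.14) against 9.12 FPKM (7.86 to 10.7). These bounds are apart as deposited but overlap after rescaling. For the difference between the label ratios, 1 of 4 eligible receptors was called lower, Vldlr (-1.78 ± 0.56), and 1 higher, Lrp1 (1.31 ± 0.32). In that comparison 27.2% of all coding genes were called. Lrp1, an endocytic receptor, stood at 29.8 FPKM (25.0 to 34.2) and 29.9 FPKM (26.0 to 32.7) in the foot and at 9.22 FPKM (8.94 to 10.4) and 17.6 FPKM (15.8 to 19.7) in the back. Lrp1 was called higher in the foot for the positive label.

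Genes for the maturation and phosphorylation of Lrp5 and Lrp6 had entries of their own for 13 of 17 symbols. Between fractions 1 of 9 was called higher and 1 lower in the foot, and 0 of 7 in the back, where 21.8% and 7.73% of all coding genes were called. Between foot and back 1 of 10 was called higher and 3 lower for the positive label, and 2 of 9 higher and 2 lower for the negative label, where 31.2% and 28.2% of all were called. Csnk1g2, a casein kinase 1 gamma gene whose family phosphorylates Lrp6, stood at 2.97 FPKM (1.63 to 4.31) and 3.67 FPKM (2.80 to 4.54) in the foot against 11.8 FPKM (10.9 to 12.8) and 15.2 FPKM (14.1 to 16.5) in the back. Its relative Csnk1g1 was high in the foot library labelled positive alone, at 10.9 FPKM (5.16 to 16.8), with 1.32 FPKM (0.983 to 2.71), 1.47 FPKM (1.28 to 2.08) and 0.871 FPKM (0.711 to 1.33) in the foot library labelled negative and the back libraries. The bounds of the high value reach 5.16 FPKM at the low end, still above the upper bounds of the others.

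The other Wnt lists were counted in the same way, and their counts stand against the same shares of all coding genes. Of the 14 other secreted Wnt inhibitors with an entry, 2 of 9 eligible genes were higher and 5 lower in the foot for the positive label, and 2 of 8 higher and 3 lower for the negative label. Between fractions 0 of 6 were called in the foot, and 1 of 8, Sfrp2, was called higher in the back. Of 14 Frizzled and other Wnt receptor genes, 2 of 5 and 2 of 6 eligible genes were lower in the foot, Ptk7 and Ror2 under both labels, and none was higher. Between fractions 1 of 5 was called lower with the positive label in the foot, Fzd3 (-1.06 ± 0.64), and 0 of 5 in the back. Fzd3 was also called in the difference between the label ratios (-1.39 ± 0.71), as 1 of 6 eligible genes, where 27.2% of all coding genes were. Ptk7, a planar polarity co-receptor, stood at 7.04 FPKM (4.94 to 9.14) and 5.99 FPKM (4.76 to 7.21) in the foot against 32.6 FPKM (30.1 to 35.1) and 19.6 FPKM (18.6 to 20.7) in the back. Of 21 genes of Wnt ligands and their secretion only 3 were eligible in each pair, with 1 called lower in the foot between fractions (Wnt5a) and 1 lower between foot and back for the positive label (Wnt11). In the R-spondin arm 1 of 3 was higher and 1 lower in the foot for the positive label, and 3 of 4 higher and 1 lower for the negative label. Of 12 Wnt feedback genes, 1 of 5 (Lef1) was higher with the positive label in the foot and 0 of 8 were called in the back. Of the same list 4 of 9 were lower in the foot for the positive label, and 5 of 7 lower and 1, Axin2, higher for the negative label. The feedback and secreted inhibitor lists share genes. Notum and Apcdd1 count as lower in both for the positive label, and Apcdd1 for the negative label. In the difference between the label ratios, 2 of 9 secreted inhibitors, 1 of 3 Wnt ligand genes and 1 of 4 R-spondin arm genes were lower. Of the Lrp5 and Lrp6 maturation genes 1 of 10 was higher and 1 lower, and 2 of 9 feedback genes were higher.

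Patterns over the 4 libraries were compared by Euclidean distance between log2 values centred on each gene's mean, over 6374 coding genes of at least 5 FPKM in any library. This was done for the 3 called genes. Closest to Dkk3 were Cav1, which encodes caveolin 1 (distance 0.09), Lypd1 (0.13) and the secreted frizzled-related gene Sfrp4 (0.15), where the median distance of all genes was 2.55. Sfrp4 stood at 10.8, 9.26, 1.05 and 0.303 FPKM in the foot (positive label first) and then the back. Closest to Kremen1 were Esyt1, the sterol synthesis gene Dhcr7 and the translation factor gene Eif5b, at 0.04, 0.06 and 0.07, and closest to Lrp6 were Zfp84, Ftsj1 and Zfp521, at 0.06, 0.08 and 0.08. With 4 points per gene such likeness describes levels only.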

How the data were processed

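Messenger RNA of 4 sorted dermal fractions was measured by sequencing of TruSeq mRNA libraries, 1 per group. Per the submitters' processing notes, the authors used TopHat, Cufflinks and mm9 to make the FPKM values. Versions, settings, annotation, read totals and the confidence level of the bounds: not given in the sources used here. Per the file headers there are lower and upper bounds and a status for each deposited FPKM. Locus starts were read as counted from 0 and are printed counted from 1.

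From these values (Python 3.11.15, pandas 2.3.3), entries of a symbol were summed, joined loci kept as 1 unit (975 units), 22 symbols turned into dates restored, and coding status taken by symbol from GENCODE vM21 (18513 coding units with status OK). Median-ratio factors came from 3423 coding units of at least 5 FPKM in every library. Ratios used a pseudocount of 1, and understate changes of low genes. The scaling and calls were tried on simulated data in which only genes of higher level were changed, which does not cover low genes. With 1 library per group there is no test. Non-overlap of bounds was counted over coding units of at least 1 FPKM. Over all 18513 coding units, as first planned, it held for 20.6% to 35.5% depending on the pair. Alternatives were other scalings, pseudocounts of 0.1 and 0.5, other minimums and the highest entry per symbol. Named genes were all 9, Axin2, up to 3 called genes per list and pair, and the 3 closest patterns of each called gene; Agrn, Sostdc1, Lrp1, Csnk1g1, Csnk1g2 and Ptk7 were given values from these, and the rest of the called genes are counted. A result of the list of related receptors is not reported here. The genes, lists and markers were chosen with earlier results of these data known.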

Additional observations from a re-analysis of the deposited data

How the results depend on the processing

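Counts of called genes were recomputed under 7 alternatives for each of the 5 comparisons. They stayed within 1.5 times the reported count except in the foot between fractions, where a pseudocount of 0.1 called 1 gene, Dkk2, in place of 0. With that pseudocount 25.7% of all coding genes were called there. With FPKM as deposited the 3 genes called between foot and back for the negative label were Dkk2, Dkk3 and Lrp6, without Kremen1. As deposited 41.8% of all coding genes were called in that pair, where 28.2% were after rescaling. A minimum of 1 FPKM added Lrp5 under both labels, where 29.9% (positive label) and 26.4% (negative label) of all were called. Of 40 log2 ratios, 14 moved by more than their half-width as deposited. Called ratios among them were those of Dkk3 (2.44 to 2.94) and Kremen1 (-1.44 to -0.91) between foot and back for the negative label. As deposited 7 ratios changed sign, none of them a called ratio. With a pseudocount of 0.1, 11 ratios moved, and with 0.5, 3 moved. None moved with upper-quartile factors or the highest entry. No paired analysis was possible because each group holds 1 library, so that the groups compared share fewer than 2 replicate numbers, and for the same reason no library could be left out. The read totals behind each FPKM were not used here, so depth is known only through the bounds. The wide bounds of the foot libraries limit what can be said of Lrp4 and Lrp5, whose foot values carry bounds of 49.0% to 65.1% of the value to either side.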
